A study of Mus musculus with 6 samples.

Results

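The genes described here are the 9 genes of the Neurog3 cascade of endocrine commitment: Neurog3, Neurod1, Insm1, Myt1, Pax4, Fev, Rfx6, St18 and Btbd17. They were chosen by name, with earlier results of these data known. All 9 were listed among the 31028 gene symbols of the RNA matrix and among the 8269 of each ATAC matrix. The study compared embryonic mouse pancreas (strain C57BL/6) that was Ptf1a+/+ (WT) with pancreas that was Ptf1aenh-delta/enh-delta (KO), the latter lacking a Ptf1a enhancer on both alleles. Ptf1a is a transcription factor of early pancreatic progenitors. At embryonic day 10.5 (E10.5), dissected tissue labelled as pancreatic multipotent progenitor cells, from pools of 5 to 9 embryos was used for 1 single-cell RNA library and 1 single-cell ATAC library per genotype. At E13.5, dissected pancreas from pools of 6 embryos was used for 1 single-cell ATAC library per genotype. ATAC cuts accessible DNA with a transposase, and the deposited values summarise the cuts around each gene. With a single library behind each group, differences have no replicate check and no p-value is given. RNA was counted as UMIs, tags that mark single captured molecules, and levels are in CPM, a gene's UMIs scaled to the same total in every pool. Intervals are at 95% and cover counting error only. The embryos of a library were pooled, so the spread between embryos is not seen.

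Neurog3 is the basic helix-loop-helix factor that commits pancreatic progenitors to the endocrine fate. It is made briefly, is repressed by Notch signalling through Hes1, and is shut off as hormone-producing cells form. Neurod1 (a related factor), Insm1 and Myt1 (zinc finger factors), Pax4 (a paired-box factor) and Rfx6 (a winged-helix factor) act with or after it. Fev, an ETS factor, marks endocrine precursors that follow the Neurog3 stage, and St18 is a zinc finger factor of the Myt1 family. Btbd17 encodes a protein with a BTB domain. The endpoint of the axis used here is the granins Chga and Chgb, proteins of hormone granules.

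Basic helix-loop-helix factors bind the E-box, CANNTG. Neurog3 lies on chromosome 10 from 62133090 to 62134763, and Neurod1 on chromosome 2 from 79452637 to 79456636. Insm1 (146221997 to 146225020) and Myt1 (181763332 to 181827775) are also on chromosome 2. Fev (74881501 to 74885473) and St18 (6487231 to 6860940) are on chromosome 1, and Rfx6 (51677760 to 51730429) shares chromosome 10 with Neurog3. Pax4 lies on chromosome 6 from 28442334 to 28449340, and Btbd17 on chromosome 11 from 114790669 to 114801916. The 250 bases before an annotated start are shown for Neurog3, which heads the cascade, for Neurod1, a direct target, and for the first of the 3 starts of Myt1, a later member without an E-box there. The sequences are from RefSeq (GRCm38.p6, the build called mm10), on chr10:62132840-62133089 (plus strand), chr2:79456637-79456886 (minus strand) and chr2:181763082-181763331 (plus strand), with each E-box in capitals.
Neurog3: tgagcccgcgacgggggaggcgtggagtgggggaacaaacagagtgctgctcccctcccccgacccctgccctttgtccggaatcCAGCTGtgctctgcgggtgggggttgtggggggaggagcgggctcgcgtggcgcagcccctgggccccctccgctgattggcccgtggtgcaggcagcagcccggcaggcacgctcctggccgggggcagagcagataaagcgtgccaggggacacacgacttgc
Neurod1: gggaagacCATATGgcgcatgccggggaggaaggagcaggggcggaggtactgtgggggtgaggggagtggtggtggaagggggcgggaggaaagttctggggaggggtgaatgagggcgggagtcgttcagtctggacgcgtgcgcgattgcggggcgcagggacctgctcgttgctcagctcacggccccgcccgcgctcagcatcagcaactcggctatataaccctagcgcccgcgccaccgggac
Myt1: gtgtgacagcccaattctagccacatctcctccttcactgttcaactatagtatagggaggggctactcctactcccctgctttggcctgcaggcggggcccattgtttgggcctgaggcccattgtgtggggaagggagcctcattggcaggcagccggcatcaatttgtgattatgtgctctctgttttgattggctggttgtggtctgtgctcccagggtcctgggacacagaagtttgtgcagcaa
Neurog3 held 1 E-box, the word CAGCTG, and Neurod1 held 1, CATATG. The first Myt1 window held 0, as did the windows of Fev, Rfx6 and Btbd17, and the other Myt1 windows held 2 and 1. Of 32851 promoter windows of this length, 66.2% held at least 1 E-box, so a match is common, and both strands are covered because the pattern reads the same on each. The form CAGATG or CATCTG, found in 14.4% of windows, was in none of the windows of the 6 members in the table. The N-box, a word that Hes1 can bind, was searched as CACNAG or CTNGTG. It was in 36.7% of windows and in 1 of the 6 members, Rfx6, as CACGAG. The windows of Rfx6 (51685268 to 51685517) and Btbd17 (114795893 to 114796142) lie inside the gene spans given above. The same holds for the other Myt1 windows. These windows thus precede annotated starts within the gene and not its outer end. Insm1, Pax4 and St18 had no entry.

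A floor of 1000 detected genes per cell left 451 cells in WT, with a median of 6700 UMIs, and 369 in KO, with a median of 9856. The libraries shared 1 barcode. Ptf1a itself had 142 UMIs in WT and 0 in KO cells, where a count of 0 allows a share of up to 0.813% of cells. Clustering without the 9 genes gave 5 RNA clusters. Clusters 2 and 3 were endocrine-like, with 10 and 12 of the 12 endocrine markers raised. Together they are called the endocrine-like class: 93 WT cells (20.6%, 17.0 to 24.7) and 174 KO cells (47.2%, 42.0 to 52.4). Cluster 2 was led by Chgb, Sct and Cck, and cluster 3 by Cartpt, Ins1 and Iapp, so cluster 2 is called by number and no subtype name is given. Cluster 1 was progenitor-like (123 WT and 73 KO cells), and cluster 0 was mesenchyme-like (154 and 102 cells). The neural crest and neuronal markers summed to 201 CPM in the class in WT and 212 in KO, against 45.5 and 46.9 in the other cells, and Neurog1 and Neurog2 were at 0 in both libraries. At a Leiden resolution of 0.8 the cluster with most Neurog3-positive cells met the neural and not the endocrine name, so its name depends on the resolution. The libraries labelled as progenitor cells thus also held endocrine-like and mesenchyme-like cells. In the RNA matrix fewer cells of a type and less RNA per cell cannot be told apart in sums over all cells.

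All 9 members were concentrated in the endocrine-like class in both libraries. Against all other cells, 8 of the 8 members with enough UMIs were at least 2-fold higher in WT, where 5.74% of all genes were. In KO, 9 of 9 were, where 6.06% of all genes were. Neurod1 stood furthest apart, with a log2 ratio (of CPM plus 10, here and for all RNA log2 values) of 4.54 in WT and 4.51 in KO. Neurog3 stood least apart in WT, at 1.24, and reached 2.14 in KO. Neurog3 had the lowest share of its UMIs in the class: 60.5% in WT and 89.1% in KO, against 96.0% and 98.6% for Neurod1. The progenitor-like cluster held 28.4% of the Neurog3 UMIs in WT and 9.55% in KO. Insm1 had a like spread, with 67.5% of its UMIs in the class in WT and 23.0% in the progenitor-like cluster. By number, Insm1 had 41 UMIs outside the class in WT and Neurog3 had 32. Myt1 had 0 UMIs in the progenitor-like cluster in both libraries.

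For shares of cells, counts were thinned at random to 5000 UMIs, leaving out shallower cells: 263 of 451 WT cells and 265 of 369 KO cells remained. Neurod1 was then detected in 77.2% of the WT cells of the class (61 of 79; 66.4 to 85.9) and in 78.4% of the KO cells (127 of 162; 71.3 to 84.5). It was detected in 4.65% of WT and 9.68% of KO mesenchyme-like cells, which should lack it. The median depth before thinning was 13510 and 12138 UMIs in these 2 WT pools and 11379 and 13188 in the KO pools. Fev was detected in 30.4% and 32.1% of the class, Btbd17 in 32.9% and 34.0%, Rfx6 in 25.3% and 24.7%, and Insm1 in 25.3% and 30.9%, each WT then KO. St18 was detected in 27.8% and 20.4%, the second of these below the KO shares of those 4 genes, and Myt1 in 13.9% and 22.8%, both below. In the mesenchyme-like cluster these 6 genes were in 0 to 2 of 43 WT cells and in 0 or 1 of 31 KO cells. Pax4 was near the limit of detection, with 2 WT cells and 17 KO cells. A cell of the class held UMIs of a median of 2 members in WT and 3 in KO, and 43.0% and 54.3% of the cells held 3 or more.

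The order of detection was read from the share of cells positive for a member that also held a Chga or Chgb UMI. A low share means that the member was often seen without a granin UMI, and order in time was not measured. Neurog3 had the lowest share in both libraries, and Fev was at or near the top in both. In WT, 6 of 14 Neurog3-positive cells held a granin UMI (42.9%, 17.7 to 71.1), and in KO 25 of 37 did (67.6%, 50.2 to 82.0). All 8 other members had a higher share than Neurog3 in WT and all 8 in KO. Neurog3 was also lowest, in both libraries, without thinning (48.6% and 68.5%). Within the endocrine-like class alone, the WT share of Neurog3 was much higher, at 83.3% of 6 positive cells, next to 84.6% for Btbd17 and above the 50% of the 2 Pax4-positive cells. The low WT share of Neurog3 over all kept cells thus rests on cells outside the class, while in KO the share within the class was 75%, the lowest of the 9. Chga and Chgb were among the endocrine markers that named the class and were not left out of the clustering. The shares within the class are therefore not independent of the granins. A granin UMI was not specific to the class: at this depth Chgb was seen in 18.6% of WT and 6.45% of KO mesenchyme-like cells. Without that cluster all 8 members were again above Neurog3 in both libraries. Outside the class, Chgb had 37 UMIs in WT and 107 in KO, in 4.47% and 4.62% of those cells, and 93 of the 107 KO UMIs lay in 1 cell.

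**Figure D1:**
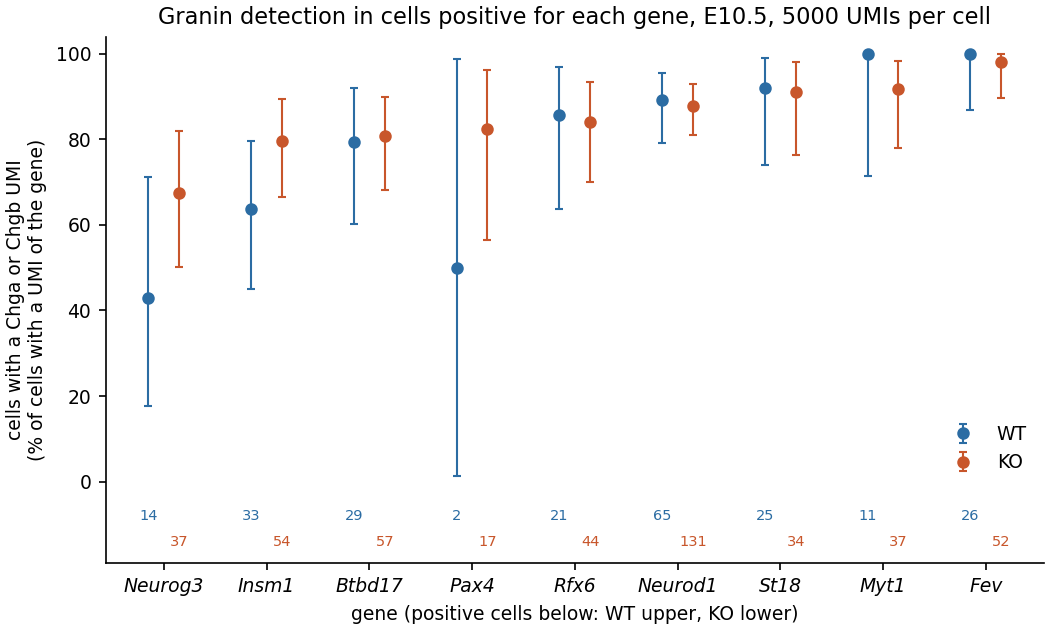
Share of cells positive for each gene that also held a Chga or Chgb UMI (percent, y axis), for WT (blue) and KO (orange) cells at E10.5 thinned to 5000 UMIs. Points are shares, bars are exact binomial 95% intervals, and the numbers below count the positive cells; Neurog3 is lowest in both libraries, at 42.9% in WT and 67.6% in KO.

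Insm1 had the second lowest share in KO and the third lowest in WT, where Pax4 stood between them on 2 positive cells. Of the Insm1-positive cells 63.6% held a granin UMI in WT (21 of 33; 45.1 to 79.6) and 79.6% in KO (43 of 54; 66.5 to 89.4). Btbd17 stood at 79.3% (23 of 29; 60.3 to 92.0) and 80.7% (46 of 57; 68.1 to 90.0). Rfx6 stood at 85.7% and 84.1%, and Pax4 at 82.4% in KO. Neurod1, St18 and Myt1 formed the upper part of the order. Neurod1 stood at 89.2% (58 of 65; 79.1 to 95.6) and 87.8% (115 of 131; 80.9 to 92.9). St18 stood at 92.0% and 91.2%, and Myt1 at 100% (11 of 11 cells) and 91.9%. For Fev, 26 of 26 positive WT cells held a granin UMI (100%, 86.8 to 100) and 51 of 52 did in KO (98.1%, 89.7 to 100). In the thinning draw used, the intervals of Fev did not overlap those of Neurog3 or Insm1 in either library. For Insm1 in KO the gap was narrow, with limits of 89.4 and 89.7, and may not hold in other draws. The neighbours from Insm1 to St18 overlapped, and their order is not resolved. In 10 other thinning draws the Neurog3 share ran from 22.2% to 56.2% in WT and from 58.3% to 70.3% in KO, and that of Fev from 88.5% to 100% and from 93.0% to 98.3%. Btbd17 ran from 53.6% to 76.9% in WT, all under the 79.3% of the draw used, and Pax4 from 33.3% to 100% on 0 to 6 WT cells. In KO, Pax4 ran from 62.5% to 76.5% (median 69.4%), all under the 82.4% of the draw used, and Insm1 from 75% to 87.9% (median 78.1%), so which of them lies nearer to Neurog3 depends on the draw. All 8 other members were above Neurog3 in 7 of the 10 draws in WT and in 9 of 10 in KO, and in the remaining draws Pax4 was the 1 member not above it.

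The 4 detection classes show which members were seen with Neurog3 in cells without a granin UMI. Among cells with a Neurog3 UMI and no granin UMI (8 in WT and 12 in KO), Insm1 was detected in 3 of 8 WT and 8 of 12 KO cells, and Btbd17 in 1 of 8 and 8 of 12. Neurod1 was detected in 1 of 8 and 6 of 12. Fev was in 0 of 8 and 1 of 12, and Myt1 in 0 of 8 and 1 of 12. In cells with a granin UMI beside Neurog3 (6 WT and 25 KO cells), Neurod1 was detected in 5 of 6 and 24 of 25. Fev was in 3 of 6 and 9 of 25 of these. In cells with a granin UMI and no Neurog3 UMI, Neurod1 was in 63.9% of 83 WT and 73.4% of 124 KO cells. Insm1 was in 19.3% and 23.4% of these, and Btbd17 in 22.9% and 21.8%. In cells with neither, no member was in more than 9.62% of cells. The WT counts are small, and most WT cells with Neurog3 only (6 of 8) lay in the progenitor-like cluster against 3 of 12 in KO, so the classes do not hold the same clusters in both libraries.

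Inside the endocrine-like class the members followed the granin level in different ways. Cells were put in 4 bins by their Chga and Chgb UMIs, out of 5000: 0, 1 to 3, 4 to 7, and 8 to 154. Fev was detected in 0 of 5, 6 of 24, 8 of 24 and 10 of 26 of the WT cells over the bins, and in 6.25%, 19.3%, 34.9% and 54.3% of the KO cells. Fev was thus higher at each step in both libraries, with overlapping intervals between neighbouring bins. Btbd17 was most frequent without a granin UMI: 4 of 5 WT and 9 of 16 KO cells (56.2%, 29.9 to 80.2), against 30.8% and 30.4% in the top bin. Neurog3 was in 8 of 16 KO cells without a granin UMI and in 17.4% in the top bin, and in 1 of 5 and 7.69% in WT. Neurod1 was nearly flat, between 73.9% and 83.7% over the bins of KO. St18 was in 46.2% of WT cells of the top bin, against 16.7% in the bin of 1 to 3 UMIs. Myt1 went opposite ways in the 2 libraries over the 3 bins with a granin UMI. It was in 25%, 16.7% and 3.85% of the WT cells and in 17.5%, 18.6% and 34.8% of the KO cells, with overlapping intervals. Bins without a granin UMI hold only 5 WT and 16 KO cells, so the shares there are loose. The class was also named in part by Chga and Chgb, so the bins are not independent of how its cells were picked.

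**Figure D2:**
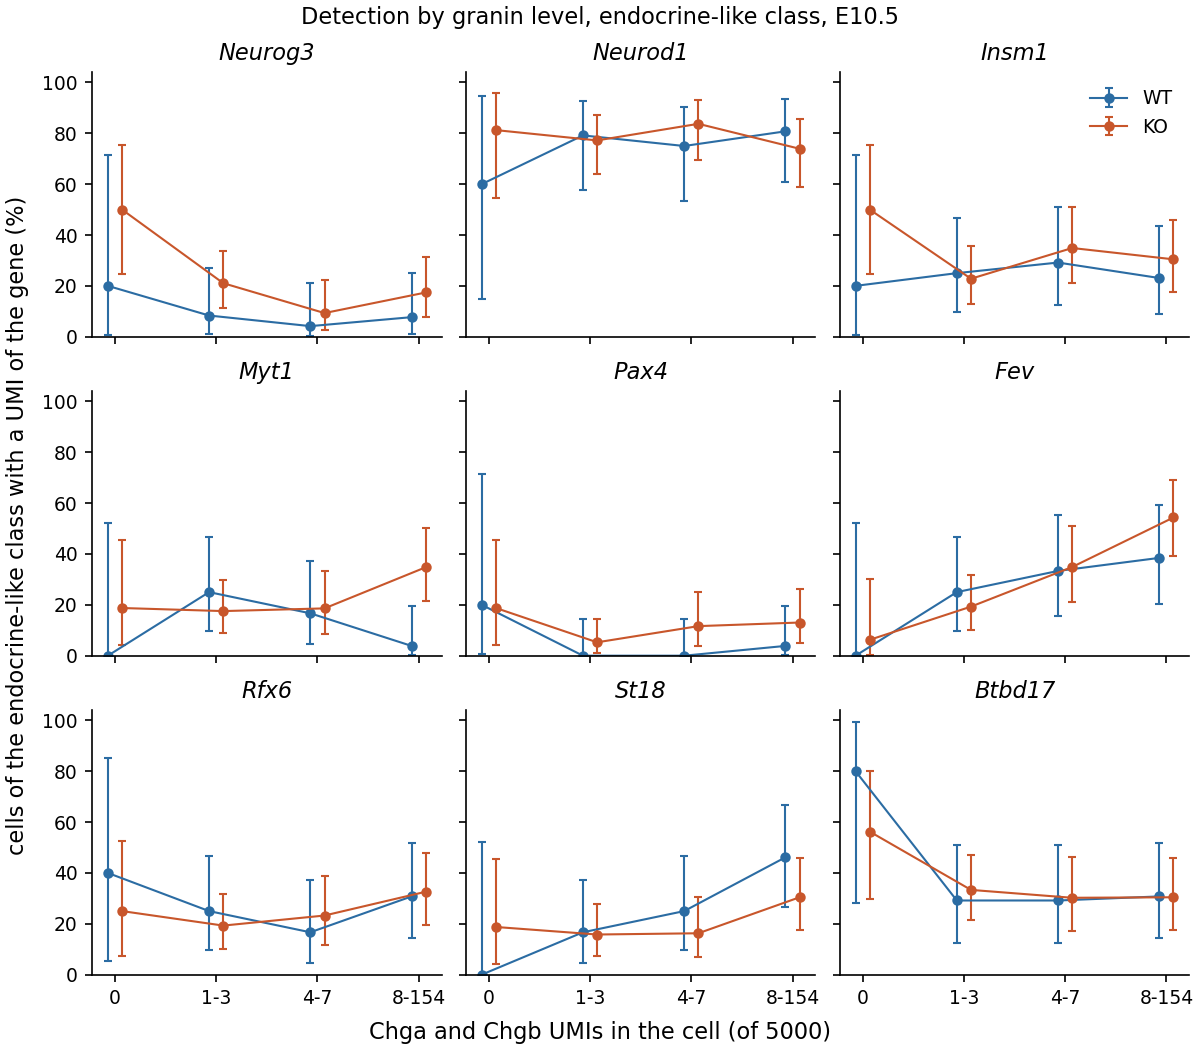
Share of cells of the endocrine-like class with a UMI of each gene (percent, y axis) over 4 bins of Chga and Chgb UMIs per cell (x axis, of 5000 UMIs), for WT (blue) and KO (orange), with exact binomial 95% intervals. Fev is higher at each step, to 38.5% (WT) and 54.3% (KO), and Btbd17 is highest in the bin with no granin UMI.

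Neurog3 was in more cells in KO than in WT, and most of the added cells were in cluster 2. Without thinning, 35 WT cells (7.76% of kept cells, 5.46 to 10.6) and 54 KO cells (14.6%, 11.2 to 18.7) held a Neurog3 UMI. In WT, 15 of the 35 lay in the progenitor-like cluster, 8 in cluster 2, 4 in cluster 3, 6 in the mesenchyme-like cluster and 2 in cluster 4. In KO, 31 of the 54 lay in cluster 2, 13 in cluster 3, 7 in the progenitor-like cluster and 3 in the mesenchyme-like cluster. Within the progenitor-like cluster the Neurog3-positive share was 12.2% in WT (7.0 to 19.3) and 9.59% in KO (3.94 to 18.8), with overlapping intervals. These shares may compare unlike cells. At a Leiden resolution of 0.5 the cluster named progenitor held 108 WT and 37 KO cells. At 0.8 a cluster named by hepatobiliary (liver and bile duct) markers held 16 WT and 37 KO cells. How many of the latter lay in the progenitor-like cluster used here was not counted. In cluster 2, 8 of 50 WT cells and 31 of 94 KO cells were positive, a difference of 17.0 points (1.75 to 29.6). The 6 positive WT cells of the mesenchyme-like cluster had a median of 22216 UMIs, against a median of 2442 for all 154 WT cells of that cluster, and 5 of them held a granin UMI. None of these 6 was called a doublet, and the part of mixed droplets was not tested. In WT, 8 of the 8 positive cells of cluster 2 held 2 or more Neurog3 UMIs, against 4 of the 15 progenitor-like ones. In KO this was 20 of 31 in cluster 2, 8 of 13 in cluster 3 and 3 of 7 in the progenitor-like cluster.

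Within the endocrine-like class, Neurog3, Pax4 and Btbd17 were higher in KO, and the ratios of the other 6 members had intervals that included 1. Neurog3 was at 39.9 CPM in WT (49 UMIs; 29.6 to 52.8) and 90.9 CPM in KO (196 UMIs; 78.6 to 105), a ratio of 2.28 (1.66 to 3.18). It was in 12 of 93 WT cells (12.9%) and 44 of 174 KO cells (25.3%), 12.4 percentage points more (2.21 to 21.2). Thinned to 1 depth, the shares were 7.59% (6 of 79; 2.84 to 15.8) and 19.8% (32 of 162; 13.9 to 26.7). The counting intervals of the CPM did not overlap. The 5 cells with most Neurog3 held 44.4% of its UMIs over all kept cells in WT and 34.1% in KO, so the sums rest on few cells.

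Pax4, which is needed for beta and delta cells, was at 8.15 CPM in WT (10 UMIs in 9 cells) and 24.1 CPM in KO (52 UMIs in 35 cells), a ratio of 2.96 (1.49 to 6.53). In cluster 2 it had 2 UMIs in WT and 34 in KO, a ratio of 9.34 with a wide interval (2.39 to 80.3), and in cluster 3 the ratio was 1.31 (0.542 to 3.48). Btbd17 was at 77.4 CPM in WT (95 UMIs) and 129 CPM in KO (278 UMIs), a ratio of 1.66 (1.31 to 2.12). Its share of cells differed less, at 47.3% and 55.2%, a difference of 7.86 points (-4.63 to 20.1). Neurod1 was at 377 CPM in WT and 352 CPM in KO, a ratio of 0.935 (0.831 to 1.05). The ratios of Insm1 (1.16, 0.893 to 1.53), Rfx6 (1.25, 0.919 to 1.71), Fev (1.04, 0.839 to 1.31), Myt1 (1.02, 0.713 to 1.46) and St18 (0.989, 0.715 to 1.38) all had intervals that included 1. Insm1 had ratios on opposite sides of 1 in the 2 clusters, 1.73 in cluster 2 (1.17 to 2.60) and 0.745 in cluster 3 (0.507 to 1.10), while Btbd17 was higher in both (1.70, 1.26 to 2.33, and 1.54, 1.04 to 2.32). These intervals bound a difference and do not show that the levels were equal.

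On the log2 scale of CPM plus 10, which understates low genes, 7 of the 9 members were higher in KO and 2, Neurod1 and St18, were lower in the class. Under a median-of-ratios scaling 5 were higher and 4 lower, since Myt1 (-0.05) and Fev (-0.02) went just under 0. The median was 0.19, beside 0.08 for the 7950 genes tested. Neurog3 was the only member past 2-fold (1.01), where 0.164% of all genes were at least 2-fold higher and 0.113% at least 2-fold lower. In cluster 3 alone the median of the 7 members tested was -0.01.

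Btbd17 had a higher KO to WT ratio in the cells with a Neurog3 UMI than in those without. In the cells of the class without a Neurog3 UMI (81 WT and 130 KO cells), Btbd17 was at 65.5 and 65.7 CPM, a ratio of 1.00 (0.738 to 1.37). The median of the 7 members tested there was 0.00, with 4 higher and 3 lower and none past 2-fold, where 0.167% of genes were 2-fold higher and 0.0972% 2-fold lower. In the cells with a Neurog3 UMI (12 WT and 44 KO cells), Btbd17 was at 180 CPM in WT (23 UMIs) and 349 CPM in KO (168 UMIs), a ratio of 1.95 (1.25 to 3.15). The share of these cells with Btbd17 was 75% in WT and 84.1% in KO, 9.09 points more (-11.9 to 38.4). The intervals of the ratios with and without Neurog3 overlapped narrowly, and their difference was not tested. Pax4 had 2 UMIs in the 12 WT cells and 30 in the 44 KO cells, a ratio of 3.99 (1.01 to 34.5). Neurog3 itself was at 383 and 407 CPM in these cells, which were picked by it. Neurod1 (0.831), Rfx6 (0.840), Myt1 (0.629) and St18 (0.666) had ratios under 1 there, with intervals that included 1. St18 was in 43.2% of the thinned WT cells of cluster 2 (16 of 37; 27.1 to 60.5) and in 17.4% of the KO cells (15 of 86; 10.1 to 27.1), intervals that only just overlapped. In cluster 3 the order was the other way, at 14.3% (6 of 42) and 23.7% (18 of 76). Without thinning, St18 was in 42.0% and 30.9% of the cells of cluster 2, with a ratio of CPM of 0.717 (0.455 to 1.14), and in 34.9% and 47.5% of those of cluster 3.

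**Figure D3:**
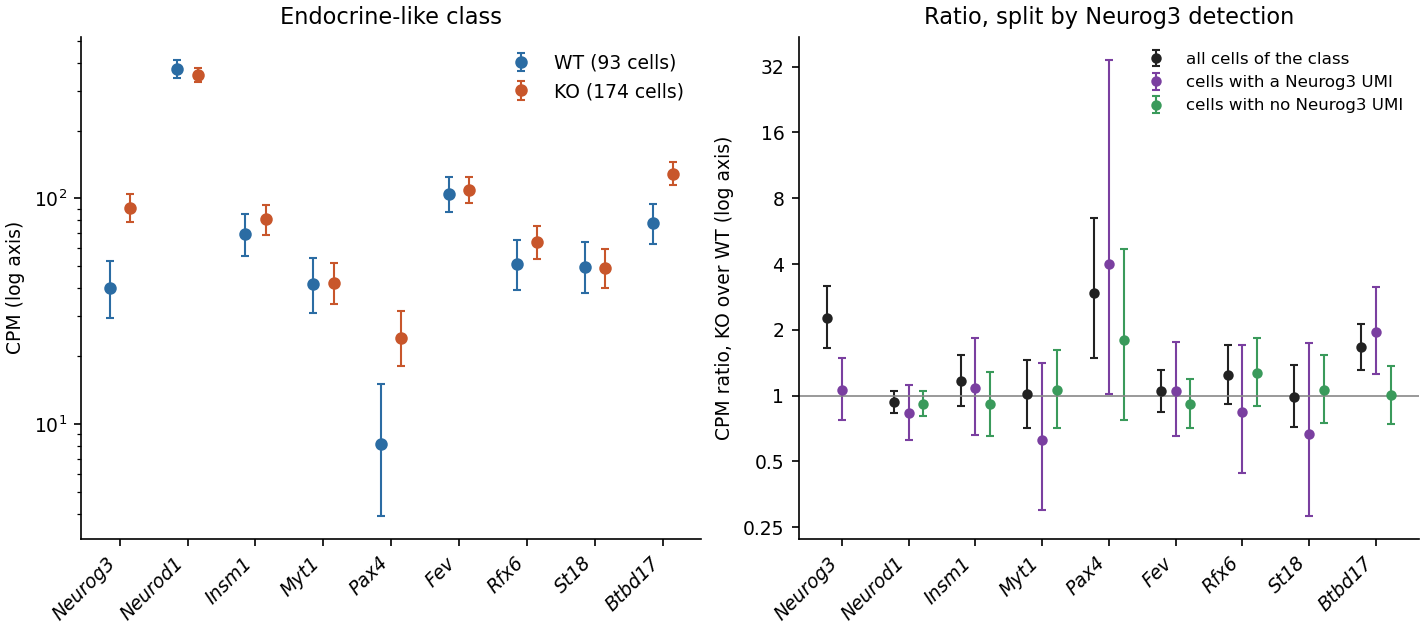
Left, CPM of each gene summed over the endocrine-like class (log axis) in WT (blue) and KO (orange), with exact Poisson 95% intervals. Right, the KO over WT ratio of CPM (log axis) in all cells of the class (black), in those with a Neurog3 UMI (purple) and in those without (green), with exact conditional 95% intervals; Btbd17 is at 1.95 with and 1.00 without a Neurog3 UMI.

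In the class, at 5000 UMIs, Insm1 and Btbd17 were found in a larger share of the cells with Neurog3 than of those without. In KO, Insm1 was in 20 of 32 cells with Neurog3 (62.5%, 43.7 to 78.9) and in 30 of 130 without (23.1%, 16.1 to 31.3). Btbd17 was in 27 of 32 (84.4%, 67.2 to 94.7) and in 28 of 130 (21.5%, 14.8 to 29.6). In WT, Insm1 was in 6 of 6 and in 14 of 73 cells, and Btbd17 in 5 of 6 and in 21 of 73. The intervals with and without Neurog3 did not overlap for Insm1 in both libraries and for Btbd17 in KO. In WT this rests on 6 cells of 1 thinning draw. Without thinning, WT Insm1 was in 10 of 12 cells with Neurog3 (51.6 to 97.9) and 36 of 81 without (33.4 to 55.9), which overlap. In KO the intervals of Insm1 and Btbd17 stayed apart without thinning. At 5000 UMIs other members were also more frequent with Neurog3 in KO, with intervals that overlapped: Pax4 (25% and 6.92%), Neurod1 (93.8% and 74.6%), Rfx6 (37.5% and 21.5%) and Myt1 (28.1% and 21.5%). Fev (31.2% and 32.3%) and St18 (15.6% and 21.5%) were not. Differences between the genes were not tested. Over all kept cells, in and outside the class, detection was also split by the number of Neurog3 UMIs. With 1 Neurog3 UMI, Insm1 was in 7 of 21 WT and 13 of 23 KO cells, and with 2 or more it was in 11 of 14 and 25 of 31. Rfx6 was in 3 of 21 and 5 of 23 against 7 of 14 and 20 of 31. Fev in KO (43.5% and 38.7%) and Pax4 in WT (3 of 21 and 0 of 14) were less frequent with more Neurog3 UMIs. Of the 21 WT cells with 1 UMI, 11 were progenitor-like and 5 mesenchyme-like, so the split also mixes clusters. These last counts are not thinned, and the cells with 1 UMI and with more had median depths of 12706 and 9830 UMIs in WT and 9244 and 9856 in KO.

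Over all kept cells the 9 members were higher in KO without exception, with a median log2 ratio of 0.69 beside 0.13 for the 10367 genes tested. Neurog3 (1.13) and Btbd17 (1.12) were past 2-fold, where 0.357% of all genes were at least 2-fold higher and 0.27% at least 2-fold lower. Pax4 had 11 UMIs in WT and 53 in KO, a ratio of 4.93 (2.55 to 10.5). St18 had the lowest value (0.42), from 17.5 to 26.9 CPM. The endocrine-like class took 20.6% of WT and 47.2% of KO cells, and outside the class the ratios of the members had intervals that included 1, among them Neurog3 at 1.16 (0.656 to 2.04). A median-of-ratios scaling moved the median of all genes to 0.00 and that of the members to 0.54, with none of the 9 changing sign.

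The other genes of the pathway were taken from 3 lists. Of 14 genes induced with or just after Neurog3, 12 could be tested in the class, and all 12 were higher in KO, with none past 2-fold and a median of 0.29 beside 0.08 for all genes. Hes6, a Hes-family partner that counters Hes1, was highest (0.62, from 74 to 211 UMIs), and Cbfa2t3, a corepressor, was lowest (0.11). Without the cells that held Neurog3, 9 of 11 were higher, with a median of 0.12. Of 12 upstream and Notch genes, 8 could be tested, 4 higher and 4 lower, with a median of -0.03. Pdx1, a factor of progenitors and later of beta cells, was lowest (-0.74, from 103 to 100 UMIs in 93 and 174 cells). Of 13 later endocrine genes, 7 were higher and 6 lower, with a median of 0.04. Ghrl, which encodes ghrelin, was past 2-fold (1.03, from 1413 to 5087 UMIs), and Gcg, which encodes glucagon, was lowest (-0.46). Over all kept cells all 13 later endocrine genes and all 12 induced genes were higher in KO, with medians of 0.59 and 0.50, while the 11 upstream genes had a median of -0.47, 4 higher and 7 lower.

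Across the 8 pools made of the 4 detection classes in both libraries, the genes whose log2 CPM ran most like Neurog3 were Crnkl1 (Pearson r = 0.97), Gadd45a (0.96) and Tbc1d9 (0.96), among 10367 genes. Of the other members, the nearest gene outside the 9 was Ptprn2 for Neurod1 (0.99), 3110043O21Rik for Insm1 (0.97), Ypel5 for Myt1 (0.99) and for Fev (0.99), Psmc5 for Pax4 (0.98), Rars for St18 (0.98) and Tmsb4x for Btbd17 (0.98). Myt1 and Fev were nearer still to each other (0.994). The pools are cut by Neurog3 and the granins, share 2 libraries and differ in size, so these values are a description.

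In the ATAC matrices every nucleus sums to 10000 over 8269 genes, so values are relative to a nucleus's own total and the depth is unknown. Both stages had an endocrine-like cluster, made without the 9 genes: 59 WT and 64 KO nuclei at E10.5 (7.04% and 9.14% of nuclei), and 364 WT and 49 KO nuclei at E13.5 (15.7% and 8.14%). The endocrine markers summed to 24.7 and 23.4 in these nuclei at E10.5 against 13.7 and 13.6 in the others, WT then KO, and to 17.7 and 24.7 against 10.0 and 6.94 at E13.5. At E13.5 an erythroid-like cluster, with 6 of 6 erythroid markers raised, held 140 WT nuclei (6.05%) and 272 KO nuclei (45.2%). Of the E13.5 nuclei outside that cluster, 16.7% in WT and 14.8% in KO were endocrine-like, so these shares were closer. The other clusters were unnamed. The E13.5 barcodes carry a month that differs between WT and KO, which means that genotype and month cannot be told apart, and these libraries shared 2 barcodes.

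The loci of the cascade had more signal in endocrine-like than in other nuclei (at E13.5, others outside the erythroid-like cluster). At E10.5 all 9 members were higher there in both libraries. In WT 7 of 9 were at least 1.5-fold higher, where 6.68% of genes were, and in KO 8 of 9, where 6.86% were. Pax4 (1.84 in WT and 1.54 in KO, log2) and Myt1 (1.67 and 1.73) stood furthest apart, and Rfx6 least (0.46 and 0.20). At E13.5, 9 of 9 were past 1.5-fold in WT, where 3.05% of genes were, and Myt1 ranked 1 of all genes (1.91). In KO 6 of 9 were, where 10% were, and Neurog3 was level with the other nuclei (1.28 against 1.32, -0.05). Myt1 was among the leading genes of the endocrine-like cluster at both stages, with Pax4 at E10.5 and Neurod1 at E13.5. The members did not enter the clustering, and a cluster against the rest is a description.

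At E10.5 no member was past 1.5-fold by genotype. Over all nuclei Neurog3 had a mean signal of 1.61 in WT and 1.56 in KO and was above 0 in 42.4% of 838 and 45.6% of 700 nuclei. Neurod1 had 1.49 and 1.62, and Btbd17 2.18 and 2.32. Pax4 was the highest of the 9 in KO relative to WT, at 0.460 and 0.679 (log2 0.56), and was above 0 in 24.5% (21.6 to 27.5) and 32.6% (29.1 to 36.2) of nuclei. That difference leaned on 1 KO nucleus with a Pax4 signal of 117, where the highest WT nucleus had 11.8. Without each gene's highest nucleus in each library the Pax4 means were 0.446 and 0.512 (log2 0.20), and among the middle 80% of nuclei by genes above 0 the value was -0.01. St18 was the lowest, at 1.28 and 1.07 (-0.26). In all, 5 members were higher and 4 lower, with a median of 0.09 beside 0.00 for all genes. Past 1.5-fold, 0.0852% of genes were higher and 0.17% lower. By rank, 99.9% of genes had a lower ratio than Pax4, 95.4% than Rfx6 (0.24), 93.8% than Myt1 (0.22) and 4.89% than St18. In endocrine-like nuclei the median was -0.01, and again none was past 1.5-fold, where 5.71% of genes were higher and 6.05% lower. Neurog3 had 3.12 in the 59 WT and 3.16 in the 64 KO endocrine-like nuclei.

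**Figure D4:**
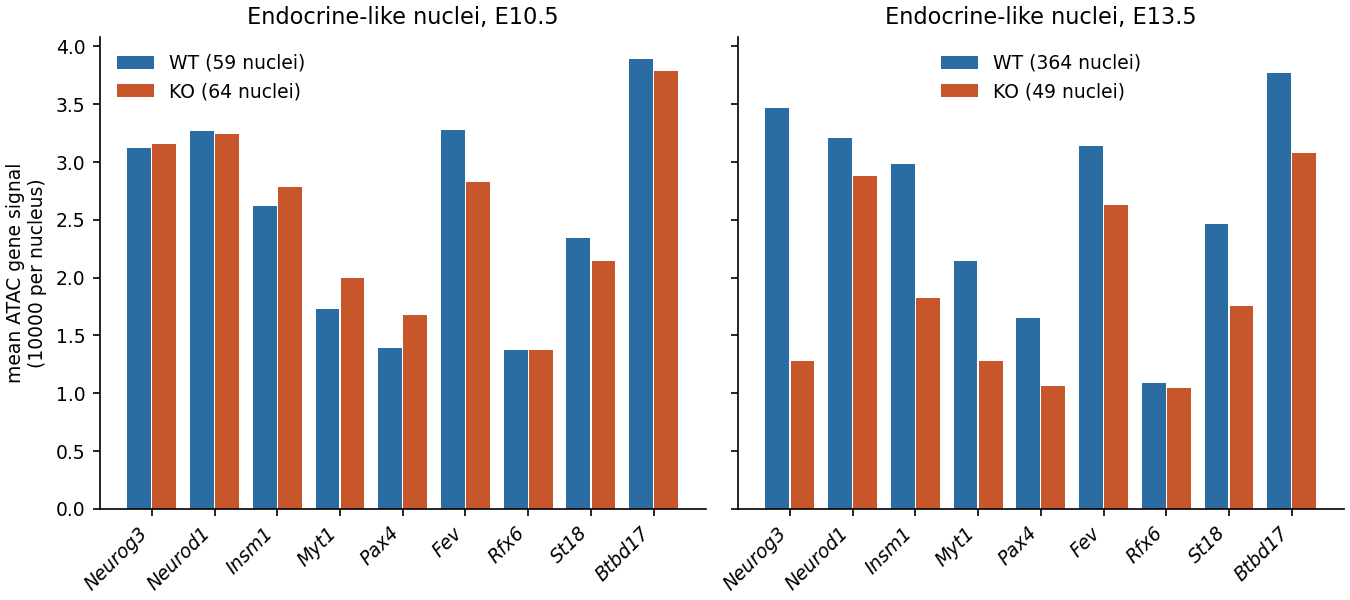
Mean ATAC gene signal of each gene in the endocrine-like nuclei (y axis, on the scale of 10000 per nucleus) at E10.5 (left) and E13.5 (right), WT in blue and KO in orange. The Neurog3 bars are 3.12 and 3.16 at E10.5 and 3.47 and 1.28 at E13.5, WT then KO; no error bar is drawn because there is 1 library per group.

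In endocrine-like nuclei at E13.5 all 9 members had less signal in KO, with the lowest ratio for Neurog3. Neurog3 had a mean of 3.47 in 364 WT nuclei and 1.28 in 49 KO nuclei (log2 -1.44). It was above 0 in 61.5% (56.3 to 66.6) and 44.9% (30.7 to 59.8) of them, and the upper quartile was 5.30 and 1.60. Without each gene's highest nucleus the means were 3.34 and 1.01. Of the genes tested, 0.195% had a lower ratio. Myt1 went from 2.14 to 1.28 (-0.74), Insm1 from 2.99 to 1.83 (-0.71) and Pax4 from 1.65 to 1.06 (-0.64). St18 (2.46 and 1.76, -0.49), Btbd17 (3.77 and 3.08, -0.29), Fev (3.14 and 2.63, -0.26), Neurod1 (3.20 and 2.88, -0.15) and Rfx6 (1.09 and 1.05, -0.06) were lower by less. All 9 were lower and 4 were past 1.5-fold, where 6.79% of genes were at least 1.5-fold lower and 6.51% higher.

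The pathway lists divided in the same nuclei. Of the 12 later endocrine genes tested, 9 were higher in KO and 7 were past 1.5-fold, with a median of 0.63 and Ins1, which encodes insulin, highest (1.52). Scg2, a granin, was lowest (-0.51). Of the 12 induced genes tested, 11 were lower, 2 of them past 1.5-fold, with a median of -0.46 and Amotl2 lowest (-1.10). Of 9 upstream genes tested, 7 were lower, with a median of -0.28 and Sox9, a progenitor factor, lowest (-0.94). Chga (2.35 and 2.24) and Chgb (1.67 and 1.47) were close to level. At E10.5 the same 12 later genes had a median of -0.06 in endocrine-like nuclei, 6 higher and 6 lower, with Gcg lowest (-0.64) and Ins1 highest (0.76). The 12 induced genes had a median of 0.14 there, 8 higher and 4 lower. The KO class at E13.5 holds only 49 nuclei.

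Over all E13.5 nuclei every member was lower in KO, with a median log2 ratio of -1.05, and 8 of 9 were past 1.5-fold, where 11.9% of genes were at least 1.5-fold lower and 6.8% higher. Neurog3 went from 2.04 to 0.803 (-1.35), St18 from 1.30 to 0.525 (-1.31) and Pax4 from 0.769 to 0.318 (-1.27). Fev was lower by the least (-0.45). The share of nuclei above 0 differed less: 37.7% and 32.4% for Neurog3, and 22.3% and 22.8% for Pax4, which was thus not lower on that measure. The erythroid-like cluster made up 45.2% of KO nuclei. Outside it, 7 of 9 were lower and 2 higher, with a median of -0.38, and 3 were past 1.5-fold: Pax4 (-0.87), St18 (-0.75) and Neurog3 (-0.72). There 0.827% of genes were at least 1.5-fold lower and 1.23% higher. Fev (0.23) and Rfx6 (0.03) were the 2 higher ones. In these nuclei 0.0851% of genes had a lower ratio than Pax4.

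**Figure D5:**
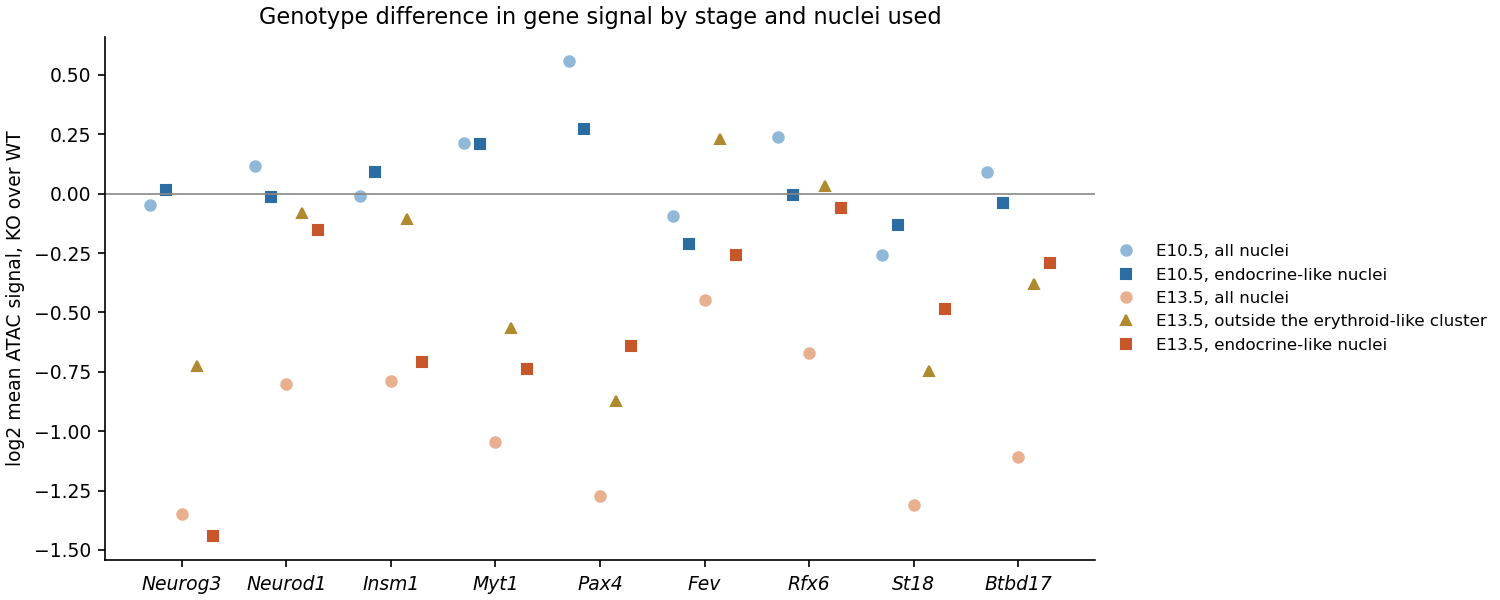
Log2 ratio of mean ATAC signal, KO over WT (y axis), of each gene at E10.5 (blue) and E13.5 (orange, and brown triangles), for all nuclei (circles), endocrine-like nuclei (squares) and nuclei outside the erythroid-like cluster (triangles). All 9 genes are below 0 at E13.5 over all nuclei and over endocrine-like nuclei, with Neurog3 at -1.35 and -1.44, while at E10.5 the values run from -0.26 to 0.56, the last being Pax4, which is 0.20 without 1 nucleus per library.

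Single nuclei seldom had signal at all 9 loci. A median of 7 members were above 0 in endocrine-like nuclei at E10.5 in both libraries and 6 in both at E13.5. All 9 were above 0 in 18.6% of WT and 21.9% of KO endocrine-like nuclei at E10.5, and in 10.2% and 16.3% at E13.5. Outside the class these shares were 2.82%, 7.86%, 0.769% and 5.06%. The E13.5 nuclei outside the class included the erythroid-like cluster. Without that cluster the E13.5 shares were 0.829% in WT and 9.96% in KO, with medians of 3 and 5 members. At E10.5 the median outside the class was 5 members in both libraries. In KO cluster 0 at E13.5 the median was 6, as in the class, and 11.8% of nuclei had all 9. The median number of genes above 0 was 5015, 4661, 4435 and 4651 inside the class and 4832, 5266, 3239 and 4226 outside it. The KO library at E13.5 thus had more genes above 0 per nucleus and a lower mean signal of the 9 genes.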

How the data were processed

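The RNA values are UMI counts per gene and cell, as deposited by the authors, with no normalization found in the values. The ATAC values are a gene signal that the authors deposited on a scale of 10000 per nucleus over 8269 genes, as a sum over each nucleus showed. The rule that assigned ATAC cuts to genes is not stated in the labels or headers. The build, per the submitters' processing notes, is mm10. The 9 members, the pathway lists and the markers were chosen with earlier results of these data known. RNA cells with 1000 or more genes were clustered without the members (scanpy 1.11.5, leidenalg 0.10.2, 2000 variable genes, 30 components, 15 neighbours, Leiden resolution 0.3). ATAC nuclei were clustered the same way, with no cell filter. Scrublet, run through scanpy, called 4 WT and 7 KO RNA cells doublets, which were kept. UMIs were summed per library and class and given as CPM with exact Poisson intervals. Ratios have exact conditional intervals, shares Clopper-Pearson intervals, and differences of shares Newcombe intervals. Log2 ratios used CPM plus 10 for genes with 50 or more UMIs in both libraries together, and mean signal for genes above 0 in 10% or more of the nuclei of a library. A count of 0 allows up to 3 counts. With 1 library per group no test across samples was run, and the scripts were tested on simulated data. The text names all members, Chga and Chgb, the highest and lowest gene of each list, and the genes most like a member, apart from some that are not reported here. Ptf1a is named as the targeted gene, and leading cluster genes as labels. The alternatives varied thinning, the granin threshold, the cells used, scaling, pseudocount, filters and clustering resolution.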

Additional observations from a re-analysis of the deposited data

Results flagged for a closer look

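Over all nuclei, the ATAC difference between KO and WT had opposite signs at the 2 stages for 5 members. The log2 values at E10.5 and E13.5 were 0.12 and -0.80 for Neurod1, and 0.22 and -1.05 for Myt1. They were 0.56 and -1.27 for Pax4, 0.24 and -0.67 for Rfx6, and 0.09 and -1.11 for Btbd17. The difference between the stages was not tested, since each group is 1 library, and the E10.5 value of Pax4 is 0.20 without each library's highest nucleus. The E13.5 values include the erythroid-like cluster, which held 45.2% of KO and 6.05% of WT nuclei. Outside it Rfx6 was at 0.03, Neurod1 at -0.08, Btbd17 at -0.38, Myt1 at -0.57 and Pax4 at -0.87. In E10.5 endocrine-like nuclei Neurod1 and Rfx6 (both -0.01) and Btbd17 (-0.04) were just under 0, and Myt1 (0.21) and Pax4 (0.27) above. Within endocrine-like nuclei the signs were thus opposite only for Myt1 and Pax4. Among RNA barcodes below the gene minimum, which the main comparisons did not use, Insm1 had 4 UMIs in KO and 3 in WT, and Fev had 4 in KO and 0 in WT. Only members with more such UMIs in KO could be flagged. Myt1 (2 in KO and 1 in WT) and Pax4 (2 and 0) also had more in KO. Neurog3 (1 in KO and 8 in WT), Neurod1 (3 and 4) and Btbd17 (2 and 4) had more in WT.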

How the results depend on the processing

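No paired analysis was possible because each genotype has 1 library per assay and stage. Of 52 alternative values of the main results, 40 moved by no more than the tolerance, 9 moved further and 3 changed sign. Of 459 for single genes, 317, 132 and 10 did. For single genes in the ATAC data, a change of sign was counted only where the main value was at least 1.5-fold either way. None could thus be counted at E10.5. Smaller values that changed sign fell in the other groups, such as Fev at E13.5, at -0.45 over all nuclei and 0.23 outside the erythroid-like cluster. The RNA class median of 0.19 was -0.0096 in cluster 3 alone. The E10.5 ATAC median of 0.09 was -0.0064 in the endocrine-like class, -0.0201 in cluster 0 and 0.1947 in cluster 1. The E13.5 median of -1.05 was -0.4858 in the endocrine-like class, -0.6284 there without each gene's highest nucleus, and -0.3818 without the erythroid-led cluster. It was -0.3816 without both classes, -1.189 in the middle 80% of nuclei, -0.0787 for the share above 0, -0.1814 in cluster 0 and -0.3401 in cluster 1. Neurod1 in the RNA class was 0.2158 when cells were taken by a UMI of Neurog3, Chga or Chgb, and Insm1 was -0.3618 in cluster 3. At E13.5 Rfx6 was 0.0319 without the erythroid-led cluster, 0.0944 without both classes and 0.3709 in cluster 0. Neurod1 was 0.0126 without both classes and 0.1877 in cluster 0, Insm1 was 0.0719 without both classes and 0.959 in cluster 1, and Pax4 was 0.0266 for the share above 0. These values use other cells or another summary, and the cause was not tested. The last alternatives on clusters and single nuclei were chosen after seeing the data. For the order of detection, 8 other members stood above Neurog3 in each library in the alternatives on depth, granin threshold and cells used, except for 7 in WT within the endocrine-like class alone. Over 10 other thinning draws there were 7, Pax4 being the exception, in 3 draws in WT and 1 in KO. Depth limits the RNA of Pax4 most, and the ATAC depth is unknown.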
